A study of Mus musculus with 12 samples.

Results

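This report describes the nuclear genes of the mitochondrial respiratory chain and the ATP synthase in mouse CD8+ T cells after 6 h with or without T cell receptor stimulation and interferon. Members were taken by name. They were the rows of the deposited expression table whose platform annotation gave exactly 1 gene symbol, starting with Nduf, Uqcr, Cox4 to Cox8 or Atp5, or reading Sdha to Sdhd. There were 98 such rows for 89 symbols, out of 23521 rows with 1 symbol and 33793 rows in all. Of the 98 rows, 35 belonged to complex I subunits, 8 to complex I assembly factors, 4 to complex II, 7 to complex III, 21 to complex IV, 21 to the ATP synthase and 2 to pseudogenes, and 9 genes had 2 rows each. The cells were CD8+ lymphocytes from the spleens of C57BL/6 mice, purified with a CD8a+ T cell isolation kit, and each of 4 groups held 3 arrays. The groups were anti-CD3 with IFN-4a, anti-CD3 without IFN-4a, PBS with IFN-4a, and PBS alone as the mock treatment. Anti-CD3 is an antibody that engages the T cell receptor complex, and the series names IFN-4a as a type I interferon, a signal of viral infection. Cells given anti-CD3 are called stimulated and cells given PBS resting.

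The respiratory chain sits in the inner mitochondrial membrane. Complexes I and II pass electrons from NADH and succinate to ubiquinone, complex III passes them on to cytochrome c, and complex IV to oxygen, while complexes I, III and IV pump the protons that drive the ATP synthase. Most subunits are encoded in the nucleus and imported, and a few core subunits of complexes I, III, IV and the ATP synthase are encoded in mitochondrial DNA. Activated T cells are known for building up both glycolysis and mitochondria before they divide.

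Each value was a log of the signal, taken as log2, from which the authors had removed the row's median over the 12 arrays. A value of 0 is therefore a row's own median, and genes cannot be compared by level. Only a coarse band before centring could be inferred for some rows, as described below. The log's base was not given in the sources used here, and with a natural log every fold below would be larger. Array medians lay between -0.0157 and 0.0165. Across all rows with 1 symbol, arrays of a group correlated at 0.727 or above and arrays of different groups at 0.543 or below. The 4 activation genes Cd69, Il2ra, Nr4a1 and Egr2 were all higher with anti-CD3. The 4 interferon-induced genes Ifit1, Isg15, Mx1 and Irf7 were all higher with IFN-4a in both states. Cd69 (1.16) and Il2ra (0.98) were also higher with IFN-4a in resting cells, and Ifit1 (0.91), Irf7 (0.89) and Isg15 (0.56) with anti-CD3 alone. Cd8a and Cd3e, which define the labelled cells, did not pass the test in any comparison, while Cd3d, Cd3g and Cd8b1 were lower with anti-CD3 in both comparisons. The labels number the replicates but do not say that they came from separate animals or cultures, so the p-values measure the spread between these arrays, which may be technical. A row is called higher or lower where limma's moderated test gave a Benjamini-Hochberg adjusted p under 0.05 over the 23521 rows.

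The first comparison asked what T cell receptor stimulation did to these genes. With anti-CD3 alone against PBS, 47 of the 98 rows were higher, 7 lower and 44 not called. Over all rows tested, 13.9% were called higher and 17.5% lower, or 31.4% in either direction. The median difference of the members was 0.20 on the log2 scale, beside -0.035 for all rows tested. With anti-CD3 and IFN-4a against PBS and IFN-4a, 45 rows were higher, 5 lower and 48 not called, beside 12.8% higher and 14.5% lower, or 27.3% in either direction, over all rows, and the members' median difference was 0.19. In a bulk sample, fewer cells of a type and less RNA per cell cannot be told apart.

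The members' median on each array followed the stimulus. It was 0.029, 0.12 and 0.062 with anti-CD3 and IFN-4a, 0.12, 0.14 and 0.13 with anti-CD3, -0.13, -0.16 and -0.17 with PBS and IFN-4a, and -0.10, -0.032 and -0.048 with PBS. All 6 stimulated arrays stood above all 6 resting ones. Bright rows were called more often over the whole table. From the smallest decimal steps in each row, 58 members stood at 8 or above before centring on their 7 highest arrays. So did 6212 of the 23521 rows with 1 symbol, a split chosen after the data were seen. Rows with too many values far from their median could not be read this way and were not counted as brighter. Among the members this held for Ndufaf4 only. Among these brighter rows, 34 members (58.6%) were higher with anti-CD3 alone and 5 (8.62%) lower, beside 33% higher and 35.8% lower, or 68.8% in either direction, for all such rows. With IFN-4a in both arms, 33 (56.9%) were higher and 5 (8.62%) lower, beside 30.7% and 34.3%, or 65% in either direction.

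**Figure D1:**
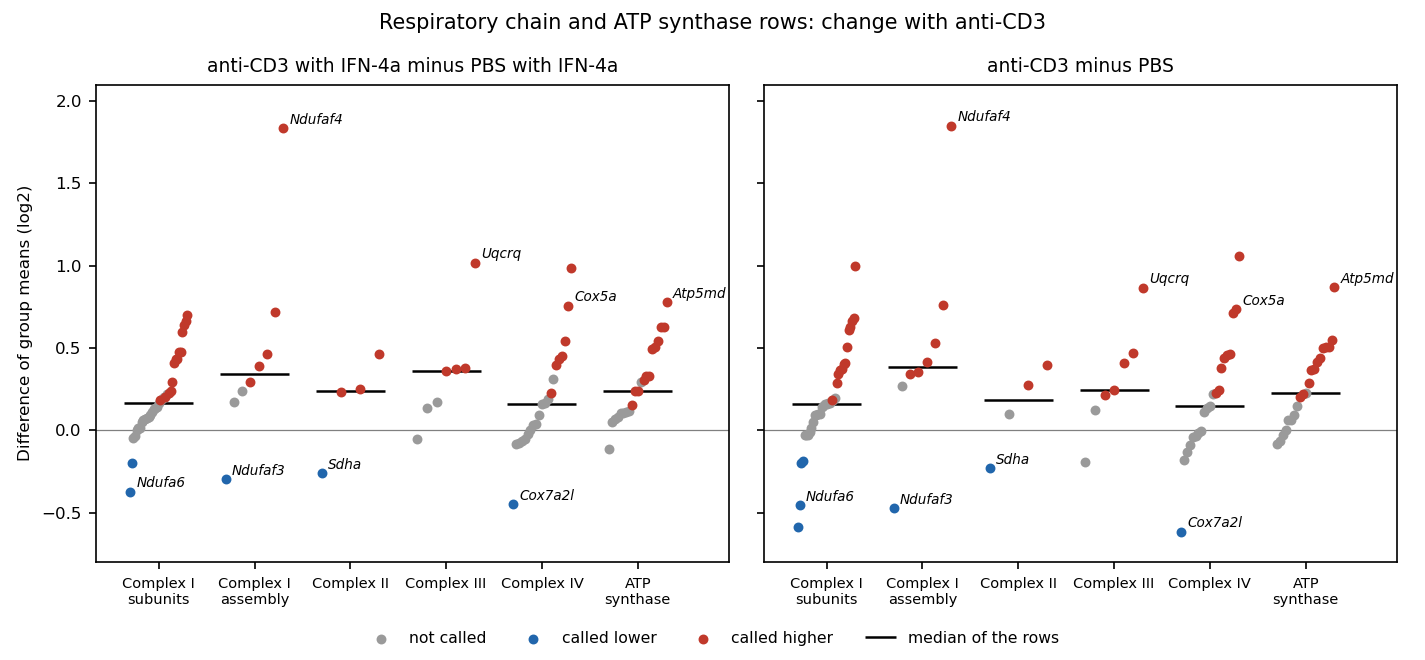
Difference of group means on the log2 scale (vertical axis) for every member row, grouped by complex, for anti-CD3 with IFN-4a minus PBS with IFN-4a (left) and anti-CD3 minus PBS (right); each point is 1 row, coloured by its call, and bars are medians. Points above 0 outnumber those below in every complex, Ndufaf4 stands far above the rest at 1.84 and 1.85, and Cox7a2l is the lowest at -0.45 and -0.61.

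Complex I oxidises NADH through a chain of iron-sulfur clusters in its core subunits, surrounded by many accessory subunits. Of the 6 core subunit rows measured with 1 symbol, 4 were higher with anti-CD3 alone (Ndufs1, Ndufs3, Ndufs8 and Ndufv2). None was called lower in limma's test, with 4 rows at an unadjusted p under 0.05. Of all rows 13.9% were higher, and of the brighter rows 33%. Ndufs8, an iron-sulfur subunit near the ubiquinone site, stood at 0.20, 0.30 and 0.19 with anti-CD3 and IFN-4a, 0.30, 0.23 and 0.30 with anti-CD3, -0.46, -0.49 and -0.36 with PBS and IFN-4a, and -0.29, -0.21 and -0.19 with PBS. Its 6 stimulated arrays all lay above its 6 resting ones, and among the resting arrays those with IFN-4a were the lower ones. It was 1.42-fold higher with anti-CD3 (log2 0.51, SE 0.057, adjusted p = 8.00e-06, limma) and 1.59-fold higher with IFN-4a in both arms (log2 0.67, SE 0.057, adjusted p = 6.49e-07). Ndufs1, the largest iron-sulfur subunit, rose by 0.37 and 0.23 in these comparisons, and Ndufs3, of the arm that holds the ubiquinone site, by 0.18 and 0.20.

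Ndufs7 followed another order. This subunit, whose cluster hands electrons to ubiquinone, stood at -0.22, 0.059 and -0.11 with anti-CD3 and IFN-4a, 0.11, 0.13 and 0.031 with anti-CD3, -0.44, -0.40 and -0.30 with PBS and IFN-4a, and -0.031, 0.066 and 0.093 with PBS. The PBS arrays with IFN-4a were the lowest, and the PBS arrays without it overlapped with both stimulated groups. Ndufs7 differed by 0.049 with anti-CD3 alone (adjusted p = 0.698, limma) and rose by 0.30 where IFN-4a was in both arms (adjusted p = 0.00656). The difference between these effects did not pass the interaction test (log2 0.25, SE 0.10, adjusted p = 0.398). Ndufv1, which binds NADH and the flavin, passed neither anti-CD3 comparison (-0.026 and 0.064).

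Among the 29 rows of accessory complex I subunits, 9 (31%) were higher and 4 (13.8%) lower with anti-CD3 alone. With IFN-4a in both arms, 10 (34.5%) were higher and 2 (6.9%) lower. Higher rows were near the shares among brighter rows (33% and 30.7%) and above those of all rows (13.9% and 12.8%). Ndufa12, a subunit of the matrix arm, had the largest rise. Its first row stood at 0.34, 0.30 and 0.33 with anti-CD3 and IFN-4a, 0.55, 0.61 and 0.61 with anti-CD3, -0.38, -0.30 and -0.46 with PBS and IFN-4a, and -0.52, -0.34 and -0.36 with PBS. No stimulated array reached down to a resting one, and within the stimulated cells the 3 arrays with IFN-4a lay below the 3 without. The difference with anti-CD3 alone was 0.997 on the log2 scale (SE 0.062, adjusted p = 2.84e-08, limma) and 0.70 (1.62-fold) with IFN-4a in both arms. The second row of Ndufa12 was also called higher in both comparisons, by less. Ndufab1, the mitochondrial acyl carrier protein, was 1.6-fold and 1.56-fold higher in these comparisons, and Ndufb6, of the membrane arm, 1.59-fold and 1.51-fold.

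The accessory subunits with lower values included a partner of the acyl carrier protein. Ndufa6, which anchors an acyl carrier protein to complex I, stood at -0.31, -0.28 and -0.15 with anti-CD3 and IFN-4a, -0.19, -0.13 and -0.034 with anti-CD3, 0.23, 0.11 and 0.034 with PBS and IFN-4a, and 0.25, 0.38 and 0.37 with PBS. All 6 stimulated values lay below all 6 resting ones, the opposite order to Ndufab1. Ndufa6 fell by 0.45 on the log2 scale with anti-CD3 alone (SE 0.070, adjusted p = 0.000164, limma) and by 0.37 with IFN-4a in both arms (adjusted p = 0.000932). Ndufv3, of the NADH-oxidising end, fell by 0.19 and 0.20, close to the threshold (adjusted p = 0.0381 and 0.0311). Ndufa3, a small membrane subunit, fell by 0.20 with anti-CD3 alone (adjusted p = 0.0227) and differed by 0.048 with IFN-4a in both arms (adjusted p = 0.672).

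Ndufb11, a membrane arm subunit encoded on the X chromosome, was the member with the largest interaction value. It stood at 0.018, 0.25 and -0.018 with anti-CD3 and IFN-4a, -0.48, -0.20 and -0.12 with anti-CD3, -0.22, -0.23 and 0.27 with PBS and IFN-4a, and 0.23, 0.51 and 0.22 with PBS. The anti-CD3 arrays without IFN-4a were all below the PBS arrays, while replicate 3 of PBS with IFN-4a stood far above the other arrays of its group and above 2 of the PBS arrays. Ndufb11 fell by 0.59 with anti-CD3 alone (SE 0.14, adjusted p = 0.0045, limma) and differed by 0.14 with IFN-4a in both arms (adjusted p = 0.554). The difference between the 2 effects was 0.73 (SE 0.20, adjusted p = 0.135), which did not pass the test.

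Assembly factors build complex I without remaining in it. Of 8 rows, 6 were higher and 1 lower with anti-CD3 alone, with a median difference of 0.38. With IFN-4a in both arms 5 were higher and 1 lower, with a median of 0.34. Of all rows 13.9% and 12.8% were higher in these comparisons, and of the brighter rows 33% and 30.7%. Ndufaf4, an early assembly factor, had the largest change of all members. It stood at 0.77, 0.89 and 0.79 with anti-CD3 and IFN-4a, 1.04, 1.05 and 1.03 with anti-CD3, -0.98, -1.05 and -1.03 with PBS and IFN-4a, and -0.82, -0.84 and -0.77 with PBS. No 2 groups overlapped: the anti-CD3 arrays were the highest, those with IFN-4a lay just below, and the PBS arrays with IFN-4a were the lowest. The rise with anti-CD3 was 3.61-fold (log2 1.85, SE 0.052, adjusted p = 1.66e-11, limma) and, with IFN-4a in both arms, 3.57-fold (log2 1.84, SE 0.052, adjusted p = 1.54e-11).

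Ndufaf3, which acts together with Ndufaf4 in the same early step, moved the other way. It stood at -0.13, -0.12 and -0.19 with anti-CD3 and IFN-4a, -0.33, -0.23 and -0.050 with anti-CD3, 0.29, 0.050 and 0.10 with PBS and IFN-4a, and 0.10, 0.37 and 0.34 with PBS. Every stimulated array lay below every resting one. Ndufaf3 fell by 0.47 with anti-CD3 alone (SE 0.091, adjusted p = 0.000969, limma) and by 0.30 with IFN-4a in both arms (adjusted p = 0.0257). Ndufaf6, an assembly factor of the membrane arm, rose by 0.76 and 0.72 in these comparisons, and Ndufaf8, a partner of Ndufaf5, by 0.53 and 0.46. Ndufaf5, which hydroxylates Ndufs7, was the assembly factor not called with anti-CD3 alone (0.27, adjusted p = 0.0913).

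The promoters of the members with the largest called rise and the largest called fall with anti-CD3 alone, Ndufaf4 and Cox7a2l, are shown because several motifs of nuclear respiratory gene promoters are known. Both are windows of 300 bases around the annotated start of the gene, 5′ to 3′ on the gene's own strand, from RefSeq on GRCm38.p6, with motif matches in capitals. The Ndufaf4 window is chr4:24897833-24898132 on the plus strand and the Cox7a2l window chr17:83514284-83514583 on the minus strand.
Ndufaf4: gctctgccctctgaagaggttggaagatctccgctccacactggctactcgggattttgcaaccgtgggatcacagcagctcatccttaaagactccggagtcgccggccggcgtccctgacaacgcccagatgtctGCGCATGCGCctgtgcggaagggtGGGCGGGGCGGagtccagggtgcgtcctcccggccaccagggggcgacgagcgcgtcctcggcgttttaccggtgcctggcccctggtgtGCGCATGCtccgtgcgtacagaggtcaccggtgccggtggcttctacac
Cox7a2l: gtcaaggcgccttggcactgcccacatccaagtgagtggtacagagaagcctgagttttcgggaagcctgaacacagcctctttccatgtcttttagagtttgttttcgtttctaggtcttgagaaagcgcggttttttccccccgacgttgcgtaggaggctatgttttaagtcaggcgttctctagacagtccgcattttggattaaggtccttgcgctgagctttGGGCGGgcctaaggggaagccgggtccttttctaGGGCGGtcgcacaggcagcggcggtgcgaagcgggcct
In Ndufaf4 the capitals mark 3 matches to the NRF1 motif GCATGCGC or its reverse complement GCGCATGC, of which those at -113 and -111 overlap each other and the last begins next to the start, and 2 overlapping matches to the SP motif GGGCGG at -89 and -84. In Cox7a2l they mark 2 SP matches at -22 and 12. Each position is the distance in bases from the annotated first base of the gene to the first base of the match, negative where the match begins before it.

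A promoter was found for 72 of the 87 member genes, leaving out the pseudogenes. The NRF1 motif stood in 16.7% of these promoters, against 3.05% of 27025 promoters of all genes. CCGGAAG, the ETS motif bound by GABPA, stood in 26.4% against 9.93%, and AAGATGGC, the YY1 motif, in 13.9% against 3.19%. GGGCGG stood in 47.2% against 38.2%, the E-box CACGTG in 8.33% against 8.09%, the CRE TGACGTCA in 4.17% against 2.03% and the interferon stimulated response element GAAANNGAA in 8.33% against 9.76%. All 7 were searched on both strands. Promoters were found for 36 genes with a row higher with anti-CD3 alone and for 36 with none. Of these the ETS motif stood in 38.9% and 13.9%, the NRF1 motif in 19.4% and 13.9%, the SP motif in 55.6% and 38.9% and the CRE in 5.56% and 2.78%. The YY1 motif stood in 11.1% and 16.7%, the interferon stimulated response element in 2.78% and 13.9%, and the E-box in 8.33% of both. These shares are descriptions and no match shows binding.

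Complex II, succinate dehydrogenase, is also an enzyme of the citric acid cycle and has 4 subunits, all encoded in the nucleus. They did not move together. Sdha, the flavoprotein that oxidises succinate, stood at -0.19, -0.18 and -0.16 with anti-CD3 and IFN-4a, -0.12, -0.068 and -0.024 with anti-CD3, 0.12, 0.11 and 0.024 with PBS and IFN-4a, and 0.16, 0.20 and 0.11 with PBS. Its stimulated arrays were all below its resting ones. Sdha fell by 0.23 with anti-CD3 alone (SE 0.052, adjusted p = 0.00372, limma) and by 0.26 with IFN-4a in both arms (adjusted p = 0.00146).

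Sdhb, the iron-sulfur subunit that takes electrons from Sdha, went the other way. It stood at 0.27, 0.30 and 0.14 with anti-CD3 and IFN-4a, 0.12, 0.077 and 0.078 with anti-CD3, -0.26, -0.24 and -0.18 with PBS and IFN-4a, and -0.21, -0.077 and -0.26 with PBS. All stimulated arrays lay above the resting ones, and within the stimulated cells those with IFN-4a were higher. With IFN-4a in stimulated cells no complex II row passed the test (smallest adjusted p = 0.22, limma). Sdhb rose by 0.27 (SE 0.062, adjusted p = 0.00345, limma) and by 0.46 with IFN-4a in both arms (adjusted p = 4.77e-05). Of the membrane anchors, Sdhc rose by 0.40 and 0.23. Sdhd differed by 0.10 with anti-CD3 alone (adjusted p = 0.425) and rose by 0.25 with IFN-4a in both arms (adjusted p = 0.0304).

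Complex III carries electrons from ubiquinol to cytochrome c. Of its 7 rows, 5 were higher with anti-CD3 alone and 4 with IFN-4a in both arms. None was called lower in either, with 6 and 5 rows at an unadjusted p under 0.05 in limma. Of all rows 13.9% and 12.8% were higher, and of the brighter rows 33% and 30.7%. Uqcrq, a small subunit beside cytochrome b, stood at 0.31, 0.47 and 0.31 with anti-CD3 and IFN-4a, 0.32, 0.39 and 0.39 with anti-CD3, -0.67, -0.72 and -0.57 with PBS and IFN-4a, and -0.75, -0.31 and -0.44 with PBS. The stimulated arrays formed a narrow range above all resting arrays, which were spread more widely. Uqcrq was 1.82-fold higher with anti-CD3 alone (log2 0.87, SE 0.094, adjusted p = 6.03e-06, limma) and 2.03-fold higher with IFN-4a in both arms (log2 1.02). The Rieske iron-sulfur protein Uqcrfs1 rose by 0.24 and 0.37, the core protein Uqcrc1 by 0.41 and 0.38, and the small subunit Uqcrb by 0.47 and 0.36. The core protein Uqcrc2 rose by 0.22 with anti-CD3 alone and differed by 0.14 with IFN-4a in both arms, which did not pass the test.

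Complex IV, cytochrome c oxidase, has a catalytic core encoded in mitochondrial DNA and nuclear subunits around it, several of which exist as isoforms. Of 21 rows, 9 (42.9%) were higher and 1 lower with anti-CD3 alone, beside 13.9% higher of all rows and 33% of the brighter rows. With IFN-4a in both arms 7 (33.3%) were higher and 1 lower, beside 12.8% and 30.7% higher. Cox5a, a subunit on the matrix side, stood at 0.17, 0.31 and 0.32 with anti-CD3 and IFN-4a, 0.39, 0.46 and 0.36 with anti-CD3, -0.32, -0.48 and -0.67 with PBS and IFN-4a, and -0.49, -0.17 and -0.35 with PBS. All stimulated arrays lay above all resting ones. Cox5a was 1.67-fold higher with anti-CD3 alone (log2 0.74, SE 0.094, adjusted p = 2.68e-05, limma) and 1.69-fold higher with IFN-4a in both arms (log2 0.76). Cox4i1, the ubiquitous form of a regulatory subunit, passed neither comparison (-0.092 and 0.16).

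Cox7a2l, a relative of Cox7a2 that joins complexes III and IV into supercomplexes and of which C57BL/6 mice are known to carry a shortened form, fell. It stood at -0.31, -0.27 and -0.27 with anti-CD3 and IFN-4a, -0.32, -0.25 and -0.10 with anti-CD3, 0.22, 0.17 and 0.10 with PBS and IFN-4a, and 0.37, 0.41 and 0.39 with PBS. Every stimulated array was below every resting one, and the PBS arrays with IFN-4a lay below those without. The fall with anti-CD3 alone was 0.61 on the log2 scale (SE 0.061, adjusted p = 2.50e-06, limma) and 0.45 with IFN-4a in both arms (adjusted p = 5.56e-05). Its paralog Cox7a2, the ubiquitous subunit, moved in the opposite direction, by 0.46 and 0.54.

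Several complex IV subunits have a ubiquitous and a tissue-restricted isoform. Cox6a1 (0.22), Cox6b1 (0.46) and Ndufa4 (0.38), which despite its name belongs to complex IV, were higher with anti-CD3 alone, and Cox8a (0.15) was not called. Cox6a2 (0.22) and Cox7a1 (-0.041), known from heart and muscle, Cox6b2 (-0.13), Cox7b2 (-0.0037) and Cox8c (-0.017), known from testis, and Cox4i2 (0.11) and Ndufa4l2 (-0.032), known from lung and hypoxic cells, were not called. Cox8b, the muscle form of Cox8a, was higher (0.25, adjusted p = 0.0178, limma). None of these restricted isoforms stood at 8 or above on all of its 7 highest arrays before centring. Centred values do not show whether a row was above background.

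**Figure D2:**
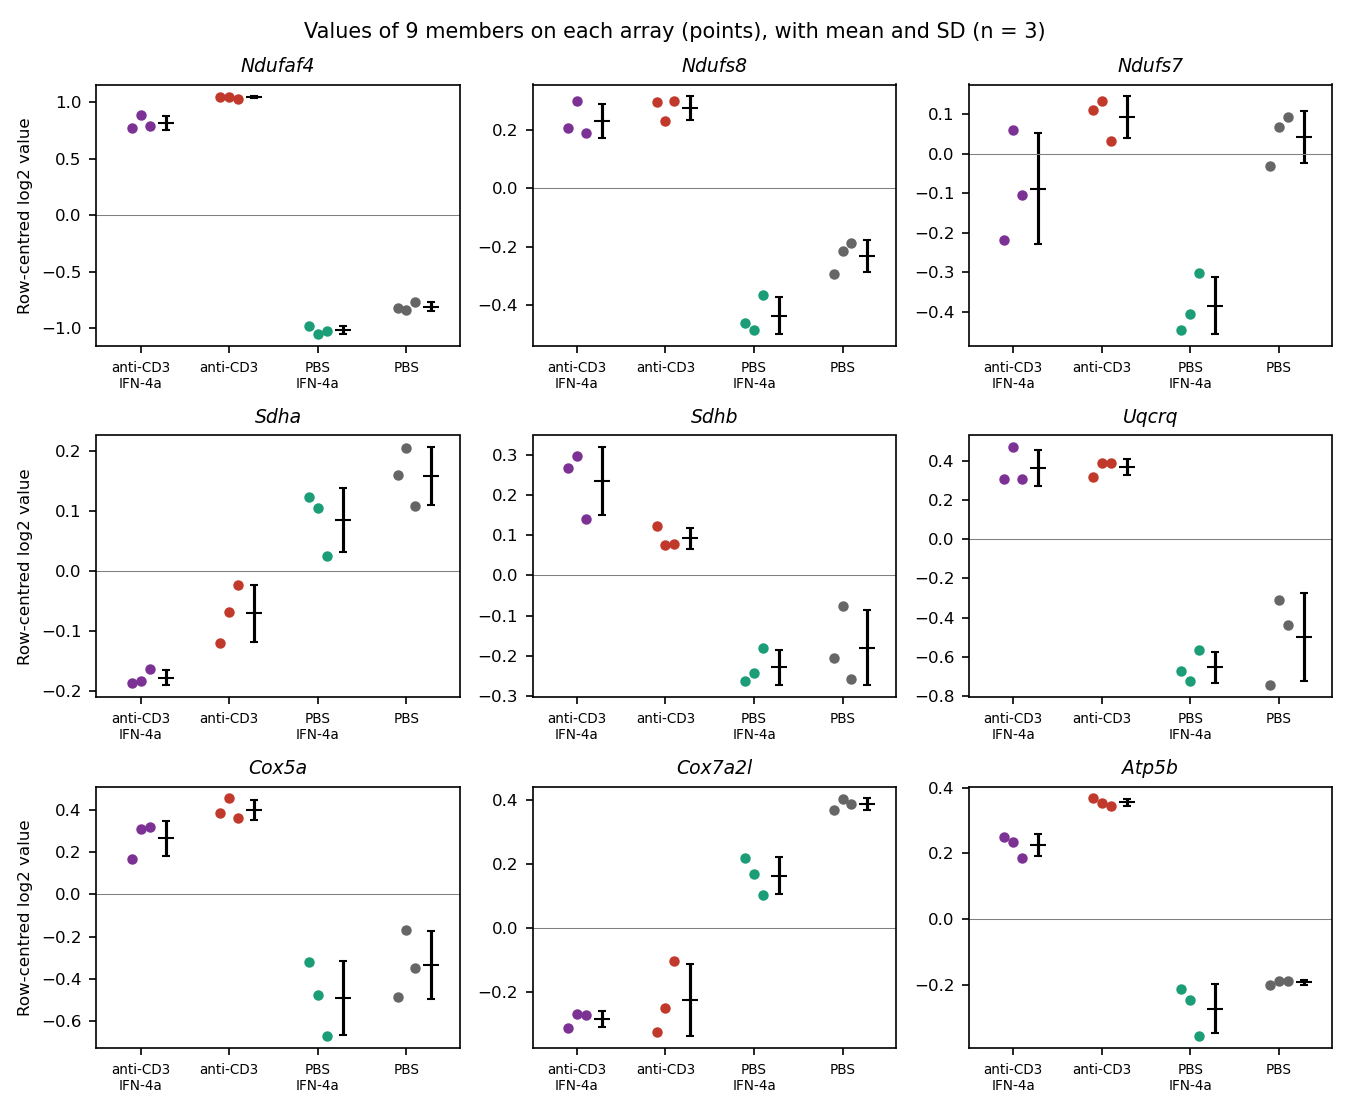
Row-centred log2 value (vertical axis) of 9 members on each of the 12 arrays (points) in the 4 groups, with the mean and SD of each group (n = 3, black); the scale differs between panels. Ndufaf4, Ndufs8, Sdhb, Uqcrq, Cox5a and Atp5b stand higher in both anti-CD3 groups, Sdha and Cox7a2l lower, and Ndufs7 is lowest with PBS and IFN-4a.

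The ATP synthase couples the return of protons to ATP formation in its F1 head. Of its 21 rows, 12 (57.1%) were higher in each anti-CD3 comparison and none was called lower in either. In limma 12 and 14 rows had an unadjusted p under 0.05. Of all rows 13.9% and 12.8% were higher, and of the brighter rows 33% and 30.7%. Atp5b, the catalytic beta subunit, stood at 0.25, 0.24 and 0.19 with anti-CD3 and IFN-4a, 0.37, 0.35 and 0.35 with anti-CD3, -0.21, -0.25 and -0.36 with PBS and IFN-4a, and -0.20, -0.19 and -0.19 with PBS. The anti-CD3 arrays without IFN-4a were the highest, those with it came next, and all resting arrays lay well below. With IFN-4a in stimulated cells no ATP synthase row passed the test (smallest adjusted p = 0.105, limma). Atp5b was 1.46-fold higher with anti-CD3 alone (log2 0.55, SE 0.052, adjusted p = 1.62e-06, limma) and 1.41-fold higher with IFN-4a in both arms (log2 0.50). The alpha subunit Atp5a1, with which it forms the head, rose less, by 0.22 and 0.24, a difference between the genes that was not tested.

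The largest rise in the ATP synthase was that of Atp5md, a small membrane subunit that joins the enzyme into dimers. It stood at 0.35, 0.30 and 0.41 with anti-CD3 and IFN-4a, 0.42, 0.47 and 0.42 with anti-CD3, -0.30, -0.44 and -0.52 with PBS and IFN-4a, and -0.44, -0.47 and -0.38 with PBS. The stimulated and resting arrays lay far apart. Atp5md was 1.82-fold higher with anti-CD3 alone (log2 0.87, SE 0.061, adjusted p = 9.12e-08, limma) and 1.71-fold higher with IFN-4a in both arms. Atp5mpl, another small membrane subunit, rose by 0.51 and 0.62.

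The rotating c ring is made from 3 genes whose mature proteins are identical. Atp5g3 stood at 0.27, 0.29 and 0.23 with anti-CD3 and IFN-4a, 0.22, 0.32 and 0.30 with anti-CD3, -0.22, -0.34 and -0.52 with PBS and IFN-4a, and -0.22, -0.24 and -0.22 with PBS. Its stimulated arrays were all above its resting ones. Atp5g3 rose by 0.51 (SE 0.068, adjusted p = 4.50e-05, limma) and 0.63. Atp5g1 differed by 0.23 and 0.30 and was not called in either comparison, with a wider spread among its PBS arrays (-0.24, -0.48 and 0.13). The 2 rows of Atp5g2 differed by 0.0045 and 0.064 with anti-CD3 alone and were not called.

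For 9 genes the platform gave 2 rows, and the rows did not always give the same call. Both rows of Atp5d, Cox7b and Ndufa12 were higher with anti-CD3 alone, and neither row of Atp5g2, Atp5h or Ndufa8 was called. Cox5b, the zinc-binding subunit of complex IV, had a first row at -0.30, 0.23 and 0.11 with anti-CD3 and IFN-4a, -0.10, -0.024 and -0.059 with anti-CD3, -0.27, -0.16 and 0.37 with PBS and IFN-4a, and 0.024, 0.14 and 0.20 with PBS. The groups of this row overlapped or nearly touched, and it differed by -0.18 with anti-CD3 alone (adjusted p = 0.439, limma). Its second row stood at 0.26, -0.074 and 0.28 with anti-CD3 and IFN-4a, 0.38, 0.45 and 0.15 with anti-CD3, 0.074, -0.076 and -0.48 with PBS and IFN-4a, and -0.41, -0.24 and -0.51 with PBS. There the anti-CD3 arrays lay above all PBS arrays, with a rise of 0.71 (SE 0.14, adjusted p = 0.000983).

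Atp5e, the epsilon subunit of the head, was split in the same way, with differences of -0.085 in the first row (adjusted p = 0.517, limma) and 0.44 in the second (adjusted p = 0.00557). Ndufa11, of the membrane arm of complex I, differed by 0.19 (adjusted p = 0.312) and 0.29 (adjusted p = 0.0434). In Cox7b, a complex IV subunit, the rises were 0.44 and 1.06. Many genes of this family have near-identical processed copies in the genome, and which transcript each row's probes read was not tested, so Cox5b and Atp5e are uncertain. The pseudogene rows Atp5c1-ps and Uqcrh-ps1 differed by 0.040 and 0.037 and were not called.

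**Figure D3:**
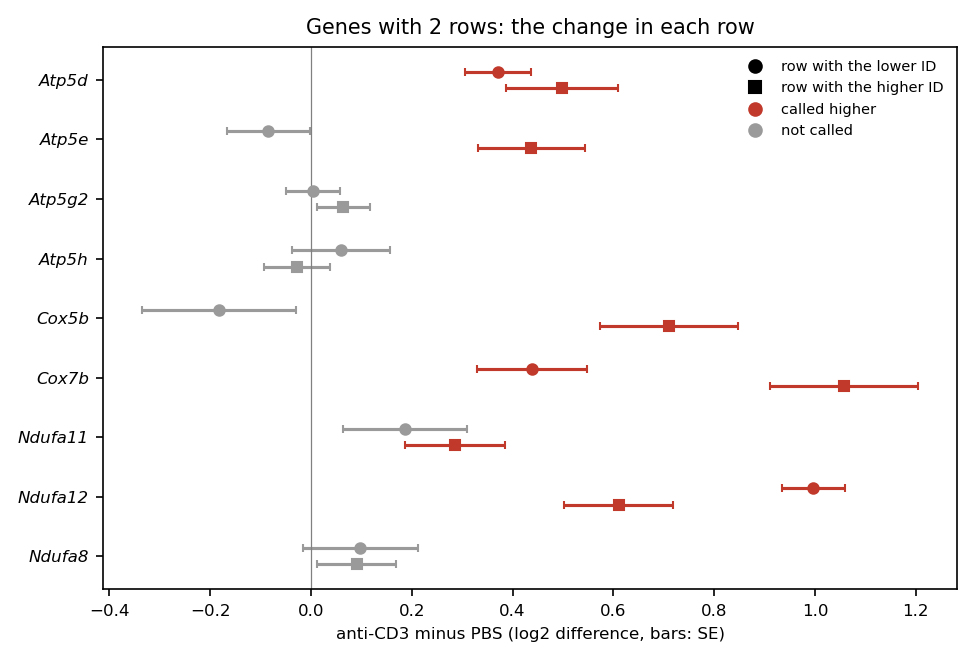
Log2 difference of anti-CD3 minus PBS (horizontal axis, bars are SE) in each of the 2 rows of the 9 genes that have 2; circles are the rows with the lower platform ID and squares those with the higher, and colour gives the call. The rows of Cox5b (-0.18 and 0.71) and Atp5e (-0.085 and 0.44) lie on opposite sides of 0.

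Of 13 genes encoded in mitochondrial DNA, 10 were measured by rows with 1 symbol (ND1 to ND6 with ND4L, CYTB, COX1 and COX3), and limma called none of them in any of the 5 comparisons. With anti-CD3 alone their differences lay between -0.092 and 0.034 with a median of -0.0076, and 0 of the 10 had an unadjusted p under 0.05. COX1, the catalytic subunit of complex IV, differed by 0.0082 (SE 0.060). With IFN-4a in both arms the differences lay between -0.21 and -0.062, with 3 rows at an unadjusted p under 0.05. Centred values do not show whether these rows were near saturation.

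Further genes of the pathway were counted from lists. Of 37 measured assembly factors outside the name pattern, 14 were higher and 4 lower with anti-CD3 alone. With IFN-4a in both arms 13 were higher and 3 lower. Among all rows tested, 13.9% were called higher and 17.5% lower with anti-CD3 alone, and among the brighter rows 33% and 35.8%. The shares with IFN-4a in both arms were 12.8% and 14.5%, and 30.7% and 34.3% among the brighter rows. Uqcc2, a complex III assembly factor, rose by 1.15 and 1.16, and Lrpprc, which stabilises mitochondrial mRNAs, by 1.12 and 1.49. Uqcc3, of the same complex as Uqcc2, fell by 0.62 and 0.49, and Tmem126b, a complex I assembly factor, by 0.50 and 0.56. Another 2 genes of the complexes escape the name pattern. The cytochrome c1 gene Cyc1 rose by 0.57 and 0.63, and Atpif1, the inhibitor of ATP hydrolysis by the ATP synthase, fell by 0.43 with anti-CD3 alone (adjusted p = 6.56e-05, limma) and differed by -0.16 with IFN-4a in both arms (adjusted p = 0.0669).

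Electron carriers and side entries feed electrons past complex I or carry them between complexes. Among 14 such genes, 8 were higher and 2 lower with anti-CD3 alone. Of all rows tested, 13.9% were higher and 17.5% lower, and of the brighter rows 33% and 35.8%. All 5 rows of Cycs, the gene of cytochrome c, rose, by 0.91 to 2.002 with anti-CD3 alone, and this gene is also known for processed copies that its probes may read. Gpd2, the mitochondrial glycerol phosphate dehydrogenase, rose by 1.42 and 1.29, and Etfdh, the ubiquinone entry of fatty acid oxidation, fell by 0.47 and 0.74. Of 15 regulators of mitochondrial biogenesis, 9 were higher and 2 lower with anti-CD3 alone, beside the same shares of all rows and of the brighter rows. Myc, a transcription factor of growth, rose by 2.75 and 2.61, and Pprc1, a coactivator of the PGC-1 family, by 1.52 and 1.92. Ppargc1a, the best known coactivator of that family, was not called (0.0051 and 0.054). Nrf1 (0.19) and Gabpa (0.23), which bind motifs counted in the promoters above, rose with anti-CD3 alone. They did not pass with IFN-4a in both arms (0.089 and 0.039). Yy1, whose motif was counted as well, was called lower in both comparisons (-0.23 and -0.21).

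Some calls named above were lost under some of the alternatives, often when a single array was left out. With anti-CD3 alone, Uqcrc2 lost its call when replicate 3 of PBS was left out (0.18, adjusted p = 0.0506, limma) and Cox6a1 when replicate 2 of anti-CD3 was (0.20, adjusted p = 0.0509). Under the alternatives run, Ndufs3 ranged from 0.14 to 0.24 and lost its call under 4 of 21, and Ndufa3 from -0.22 to -0.16 and also under 4 of 21. Ndufv3 lost its call under 9 of 22 and the second row of Ndufa11 under 8 of 22, with adjusted p up to 0.167 and 0.174, and Cox8b under 3 of 21.

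With IFN-4a in both arms, Sdhc lost its call when replicate 2 of anti-CD3 with IFN-4a was left out (0.18, adjusted p = 0.0582, limma), as did Cox6a1 (0.17, adjusted p = 0.0525). Sdhd ranged from 0.15 to 0.34 and lost its call under 5 of 22 alternatives, and Ndufaf3 ranged from -0.35 to -0.22 and lost it under 4 of 22. Ndufv3 lost it under 6 of 22 and Ndufs3 under 2 of 21. No called row turned its sign when an array was left out.

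The second question was whether interferon changed the response to stimulation. The anti-CD3 comparisons with and without IFN-4a share no arrays. Of the rows higher with anti-CD3, 40 were called in both, which is 85.1% of the 47 without IFN-4a and 88.9% of the 45 with it. Of the lower rows, 5 were called in both (Cox7a2l, Ndufa6, Ndufaf3, Ndufv3 and Sdha), or 71.4% of 7 and 100% of 5. Across the 98 rows the differences correlated with Pearson's r = 0.903, a description across rows that are not independent. Neither the overlap nor the correlation was computed over all rows, so they are not shown to be particular to these genes. For the difference between the anti-CD3 effects, the interaction, which is the anti-CD3 effect with IFN-4a minus that without, limma called none of the 98 rows, beside 0.264% higher and 0.591% lower, or 0.855% in either direction, over all rows and 2.01% of the brighter rows. Unadjusted, 7 of the 98 members had a p under 0.05 in limma, beside 2542 of all 23521 rows. The smallest adjusted p was 0.135, that of Ndufb11.

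The third comparison asked what IFN-4a did in resting cells. It lowered 12 of the 98 rows and raised 1, with 85 not called, beside 8.08% lower and 4.17% higher, or 12.2% in either direction, over all rows tested. The members' median difference was -0.10, beside a median of -0.011 for all rows. A negative difference was found in 77 of the 98 members and in 12535 of all 23521 rows. Among the brighter rows it was found in 50 of 58 members and in 4205 of all 6212. Among the brighter rows, 8 of 58 members (13.8%) were lower and none higher. For all such rows, whose median was -0.070, 17.5% were lower and 7.61% higher, or 25.1% in either direction. In limma 13 of the 58 had an unadjusted p under 0.05, beside 2657 of all 6212 such rows. The share of lower members was near that of all bright rows.

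The core subunits Ndufs7, Ndufv1 and Ndufs8 of complex I were among the 12 lowered rows. Ndufs7 had the largest fall, with -0.44, -0.40 and -0.30 with PBS and IFN-4a, against -0.031, 0.066 and 0.093 with PBS. The groups did not overlap, and Ndufs7 fell by 0.43 (SE 0.073, adjusted p = 0.00168, limma). Ndufa1, an accessory subunit encoded on the X chromosome, fell by 0.33, Ndufv1 by 0.27 and Ndufs8 by 0.20. In complex IV, Cox4i1 had -0.18, -0.25 and -0.20 with PBS and IFN-4a, against 0.00043, 0.31 and 0.19 with PBS. Its groups were separate as well, and Cox4i1 fell by 0.38 (SE 0.080, adjusted p = 0.007). Cox7a2 fell by 0.30 and Cox7a2l by 0.22. Both rows of the c ring gene Atp5g2 fell, by 0.23 and 0.19.

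Ndufs7 and Cox4i1 were the only rows of the 13 that stayed called under every alternative run. The assembly factors Ndufaf7, which methylates a core subunit, and Ndufaf4 fell by 0.26 and 0.21. Ndufa3 fell by 0.21 and lost its call under 13 of 21 alternatives. Cox8b was the only raised row (0.24, adjusted p = 0.0494) and lost its call under 15 of 21. The count fell to 6 after quantile normalization and to 4 when replicate 2 of PBS with IFN-4a, replicate 2 of PBS or replicate 3 of PBS was left out.

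Of the markers of other cells, only Gzma and Nkg7 of the NK cell list were called with IFN-4a in either state. Over all rows 12.2% were called in resting and 3.32% in stimulated cells. Gzma, a granzyme that cytotoxic T cells also make, was higher with IFN-4a in resting cells (2.28) and in stimulated cells (1.95), and Nkg7, also of cytotoxic granules, in stimulated cells (0.24). Klrb1c and Ncr1, which define NK cells, were not called in any comparison. The mean centred value of the 4 measured NK markers was 0.31 to 0.55 with anti-CD3 and IFN-4a, -0.20 to -0.088 with anti-CD3, 0.084 to 0.39 with PBS and IFN-4a, and -0.44 to -0.37 with PBS. Its part in the members' differences was not tested.

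In stimulated cells IFN-4a lowered 3 of the 98 rows and raised none. Over all rows 1.36% were lower and 1.97% higher, or 3.32% in either direction. In limma, 22 of the 98 members had an unadjusted p under 0.05, beside 3494 of all 23521 rows. Among the brighter rows these were 14 of 58 members, beside 1623 of 6212. The members' median difference was -0.093, and 82 of the 98 were negative, beside a median of -0.0031 for all rows and -0.058 for the brighter rows, of which 4369 of 6212 were negative. Among the brighter rows 1 of 58 members (1.72%) was lower, beside 2.83% lower and 4.25% higher, or 7.08% in either direction, for all such rows. The first row of Ndufa12 fell by 0.27 (SE 0.062, adjusted p = 0.0302), with 0.34, 0.30 and 0.33 with anti-CD3 and IFN-4a, against 0.55, 0.61 and 0.61 with anti-CD3. The 3 arrays with IFN-4a lay below the 3 without. The second row of Ndufa12 was not called. The first lost its call under 8 of 22 alternatives, among them the mean of a gene's rows. Ndufaf7 fell by 0.31 (adjusted p = 0.0312) and Ndufaf4 by 0.22 (adjusted p = 0.0306).

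All 3 calls in stimulated cells lay near the threshold. None was left when replicate 1 or 3 of anti-CD3 with IFN-4a, or replicate 2 or 3 of anti-CD3, was left out, and array weights gave 9. Ndufaf4 and Ndufaf7 were lowered in both states, which is 16.7% of the 12 rows lowered in resting and 66.7% of the 3 lowered in stimulated cells, 2 comparisons that share no arrays. For Ndufaf4 the fall with IFN-4a was small beside its rise of 1.84 with anti-CD3 in the presence of IFN-4a.

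**Figure D4:**
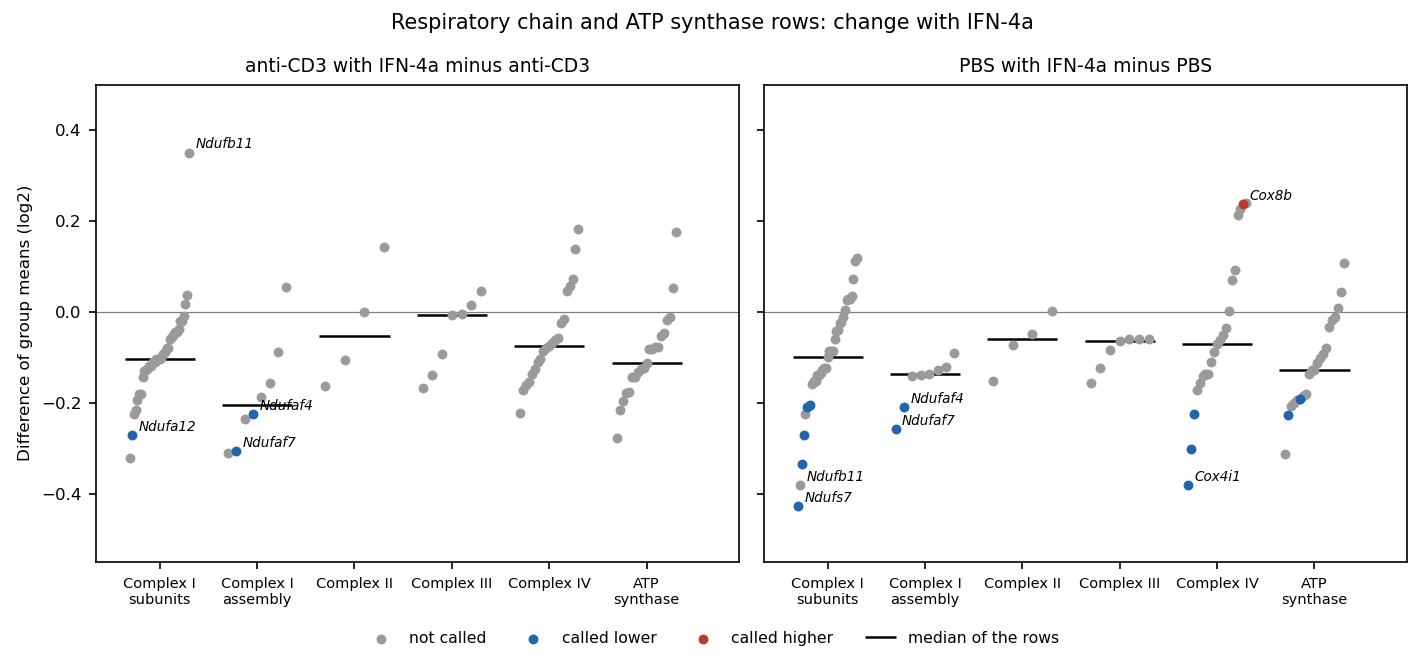
Difference of group means on the log2 scale (vertical axis) for every member row, grouped by complex, for anti-CD3 with IFN-4a minus anti-CD3 (left) and PBS with IFN-4a minus PBS (right); each point is 1 row, coloured by its call, and bars are medians. Most points lie slightly below 0 in both panels, 3 are called lower at the left, and 12 lower and 1 higher at the right.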

How the data were processed

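RNA of the 12 samples was measured on single-channel arrays after biotin labelling with a whole-transcript kit, per the labels' protocols. Deposited values were treated as log2. In the values themselves every row has a median of 0 over all arrays, so the authors had centred them. How probes were summarized and arrays scaled, and with which software, was not stated in the sources used here.

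From these values, limma 3.58.1 in R 4.3.3 fitted a mean per group to all 12 arrays and 23521 rows (22180 genes) with 1 symbol. Moderated two-sided tests had 8 residual and 4.95 prior degrees of freedom, adjusted by Benjamini-Hochberg within each of 5 comparisons at 0.05. Rows with several symbols (1814) or none (8458) were left out. All 89 member symbols matched RefSeq by Entrez identifier. The code was tested on simulated data. Arrays give no count depth, and 3 arrays per group limit the precision.

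The members, gene lists and marker lists were chosen with earlier results of these data known. Named genes were, per complex and comparison, the 3 largest called rises and falls, with catalytic and redox subunits, paralog sets and genes with 2 rows. Of other lists they were those with the 2 largest differences, chiefly in the anti-CD3 comparisons, together with Myc, Pprc1, Cycs and Cyc1. Ndufv2, Ndufaf5, Nrf1, Gabpa, Yy1, Ppargc1a and COX1 were added after their values were seen. Alternatives were quantile normalization, median centring, array weights, a replicate block, the groups compared alone, all rows, other rules for genes with several rows, a trend and robust prior, each array left out and, chosen after seeing the data, brighter rows and genes with a single row.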

Additional observations from a re-analysis of the deposited data

Results flagged for a closer look

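Rows whose annotation names a respiratory chain or ATP synthase symbol beside other symbols were not counted among the members. There were 10 such rows, and they were looked at because they hold signal outside the rows compared. They were called in a fit of all 33793 rows, with p-values adjusted over these. With anti-CD3 alone, 5 of them were higher and 1 lower, and with anti-CD3 where IFN-4a was in both arms, 7 were higher and 1 lower. Of the 23521 rows with 1 symbol, 13.9% were higher and 17.5% lower with anti-CD3 alone. With IFN-4a in both arms these shares were 12.8% and 14.5%. Since each carries several symbols, no gene is named for them.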

How the results depend on the processing

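With anti-CD3 alone the 54 called members ranged from 43 to 55 over all alternatives, and with IFN-4a in both arms the 50 ranged from 42 to 51. Calls of 44 of the 54 and 39 of the 50 were kept under every alternative that held the row. The rule of 1 row per gene took that with the highest mean, which on centred values does not show which row has more signal. With anti-CD3 alone Cox5b was then represented by a row at -0.18 and Atp5e by a row at -0.085. These are the reverse of their called rows, which follows from the choice of row. With IFN-4a in resting cells, where 13 members were called, quantile normalization gave 6, leaving out 1 array 4 to 12, and 2 of the 13 were kept throughout. With IFN-4a in stimulated cells, where 3 were called, array weights gave 9, leaving out 1 array 0 to 4, and none was kept throughout. In the interaction, with 0 called, leaving out 1 array gave 0 to 1, the 1 being when replicate 3 of PBS with IFN-4a was left out. The cause of these changes was not tested, except that fewer arrays were used. Over all rows, IFN-4a in stimulated cells called 782, 1449 with array weights, 499 when replicate 3 of anti-CD3 with IFN-4a was left out, 502 for replicate 2 and 520 for replicate 3 of anti-CD3. IFN-4a in resting cells called 2880, and 1794 when replicate 2 of PBS with IFN-4a was left out. The interaction called 201, 121 after quantile normalization and 327 with the brighter rows, and anti-CD3 alone 7381 and 4630 with the brighter rows, a smaller table. With the replicate number of the labels as a block, 12, 2, 54, 49 and 0 members were called for IFN-4a in resting and in stimulated cells, anti-CD3 alone and with IFN-4a, and the interaction. The block ended the calls of Ndufaf4 with IFN-4a in stimulated cells (adjusted p = 0.0511), Cox8b with IFN-4a in resting cells, and Atp5j and Ndufc1 with anti-CD3 where IFN-4a was in both arms. Deviations of same-numbered arrays correlated between -0.079 and 0.27, and since only 8 of 18 pairs were over 0.1 the numbers were not taken as pairs, although 9 of 12 arrays correlated best with their own number, a hint of a shared replicate effect from the data and not from the design. Signal over background could not be assessed, and the number of arrays limits which small differences can be seen.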

Other observations

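The citric acid cycle supplies NADH and succinate to complexes I and II. Of its 12 measured genes, 7 were higher with anti-CD3 alone and none was called lower in limma's test. Over all rows 13.9% were higher and 17.5% lower, and over the brighter rows 33% and 35.8%. In limma 9 of the list's 13 rows had an unadjusted p under 0.05. Idh3a, of the NAD-dependent isocitrate dehydrogenase, rose by 1.09, and Fh1, the fumarase, by 0.62, on the log2 scale. With IFN-4a in resting cells 4 of the 12 were lower and none was called higher, beside 8.08% lower over all rows and 17.5% over the brighter rows, with 7 rows at an unadjusted p under 0.05, Fh1 at -0.39 and Idh3b, another isocitrate dehydrogenase subunit, at -0.33. Of 6 exchange and pore genes, 2 were higher with anti-CD3 alone, beside 13.9% of all rows and 33% of the brighter rows. These were the ADP and ATP carrier Slc25a5 (0.86) and the outer membrane channel Vdac2 (0.32). The median difference of the list's 7 rows was 0.019. Cycs, the cytochrome c gene, had 3 of 5 rows higher with IFN-4a in resting cells, by 0.22 to 0.62. Of 37 assembly factors outside the name pattern, IFN-4a in resting cells lowered 9 and raised 2. Of all rows 8.08% were lower and 4.17% higher, and of the brighter rows 17.5% and 7.61%. Among these factors Lrpprc fell by 0.52 and Cox18 rose by 0.46. In stimulated cells only Lyrm7 of this list was called, lower (-0.58, adjusted p = 0.000166, limma). Of the 6 exchange and pore genes, IFN-4a lowered Slc25a3 (-0.22) and Vdac1 (-0.32) in resting cells and Slc25a4 (-0.25) in stimulated cells. Of all rows 8.08% and 1.36% were lower in these comparisons, and of the brighter rows 17.5% and 2.83%.

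Few markers of other cells were called with anti-CD3 alone, beside 31.4% of all rows in either direction. Of 5 B cell markers Cd79b was lower (-0.69), of 4 CD4 T cell markers Cd40lg was higher (1.04), of 4 NK cell markers Nkg7 was higher (0.93), and of 8 markers of myeloid cells Itgax was higher (0.56). The mean centred value of the B cell markers was -0.075 to -0.024 with anti-CD3 and IFN-4a, -0.12 to -0.032 with anti-CD3, 0.045 to 0.12 with PBS and IFN-4a, and 0.034 to 0.088 with PBS. The part of these cells in the changes of the members was not tested.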
